A study of Mus musculus with 6 samples.

Results

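The Kcn genes encode the pore-forming and accessory subunits of potassium channels, and their mRNAs were followed in the quadriceps of exercised and sedentary AR97Q mice. Members were all genes on the array whose symbol in the RefSeq mouse annotation is Kcn followed by a further letter. The rule found 98 genes, of which 94 are protein-coding and 4 are long non-coding RNAs, among 44931 genes and transcripts on the array. AR97Q mice are a transgenic model of spinal and bulbar muscular atrophy on a C57BL/6J background. All 6 mice were male, carried the transgene and were 9 weeks old, so the sedentary controls are diseased mice and no wild-type muscle was compared. The 3 Exercise mice ran in a forced wheel (5 m/min, bouts of 60 min, 5 bouts weekly over 4 weeks) from 5 weeks of age, and the 3 Sedentary mice did not. Muscle was taken on the day after the last run, and each mouse gave 1 single-colour Agilent array, with all 6 arrays on 1 slide.

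Potassium channels let potassium leave the muscle fibre, which ends the action potential and holds the resting membrane near the potassium equilibrium. Voltage-gated (Kv) channels open on depolarisation and repolarise the fibre, and their silent modifier subunits form no channel alone but assemble with other Kv subunits and shift their gating. Inward rectifiers stabilise the resting potential, and their ATP-sensitive members couple it to the energy state of the cell. Two-pore leak channels set the background conductance, calcium-activated channels answer a rise in calcium, and accessory subunits tune the gating and traffic of the pores. In denervated muscle the small-conductance calcium-activated channels are known to reappear.

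Every value below is a processed spot signal on the log2 scale relative to the 75th percentile of its array, called the log2 signal, and every difference is Exercise minus Sedentary on that scale. The 6 arrays had 75th percentiles of 250.5 to 256.9 in Exercise and 310.3 to 383.6 in Sedentary, 54.6 to 59.9% of probes exceeded the background clearly and 0 spots were saturated. The labels give the replicates only numbers, so p-values measure the spread between these 6 samples, which may in part be technical. All 12 skeletal muscle markers on the list, Ckm and Acta1 among them, were well above background on all 6 arrays, and 8 of them rose.

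The Kcn genes had 158 probes, of which 80 were well above background on at least 3 arrays, 66 on all 6 and 64 on none. A total of 58 genes had a probe that passed this filter and were tested, 49 of them with a probe well above background on every array. Of the 40 genes not tested, 33 were well above background on no array and 7 on 1 or 2.

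In limma at an adjusted p under 0.05, 9 genes rose and 3 fell with exercise, and the other 46 did not pass. The genes that rose included Kcng4, Kcnc4, Kcnc1, Kcnj12, Kcnq5, Kcns1, Kcnn1 and Kcnj11, and those that fell were Kcnn3, Kcna1 and Kcnrg. The share called higher was 15.5% of the 58 genes, where 11.5% of all 25005 tested genes and transcripts were called higher. The share called lower was 5.17%, against 6.15% of all tested. Both shares lay near those of the whole array, so the counts at this threshold do not set the Kcn genes apart. With the additional requirement of an absolute log2 difference of at least 1, 5 of the 58 genes rose (Kcng4, Kcnc4, Kcnc1, Kcnj12 and Kcnq5) and 0 fell, by limma. Of all tested, 1.72% rose and 1.06% fell at that requirement. The Kcn share that rose was above the 1.72%, but the Kcn genes were chosen with earlier results of these data known, and enrichment was not tested. The lowest adjusted p-value was 0.0234, and 18 of the 58 genes (31.0%) had an unadjusted p under 0.05 in limma, against 37.0% of all tested. Leaving out any single array other than Sedentary mouse 1 left 0 genes called in either direction by limma. In these fits 13 to 18 genes (22.4 to 31.0%) had an unadjusted p under 0.05, against 26.7 to 32.6% of all tested. Without Sedentary mouse 1, 10 genes were called higher and 4 lower, where 13.9% and 8.25% of all tested were.

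**Figure D1:**
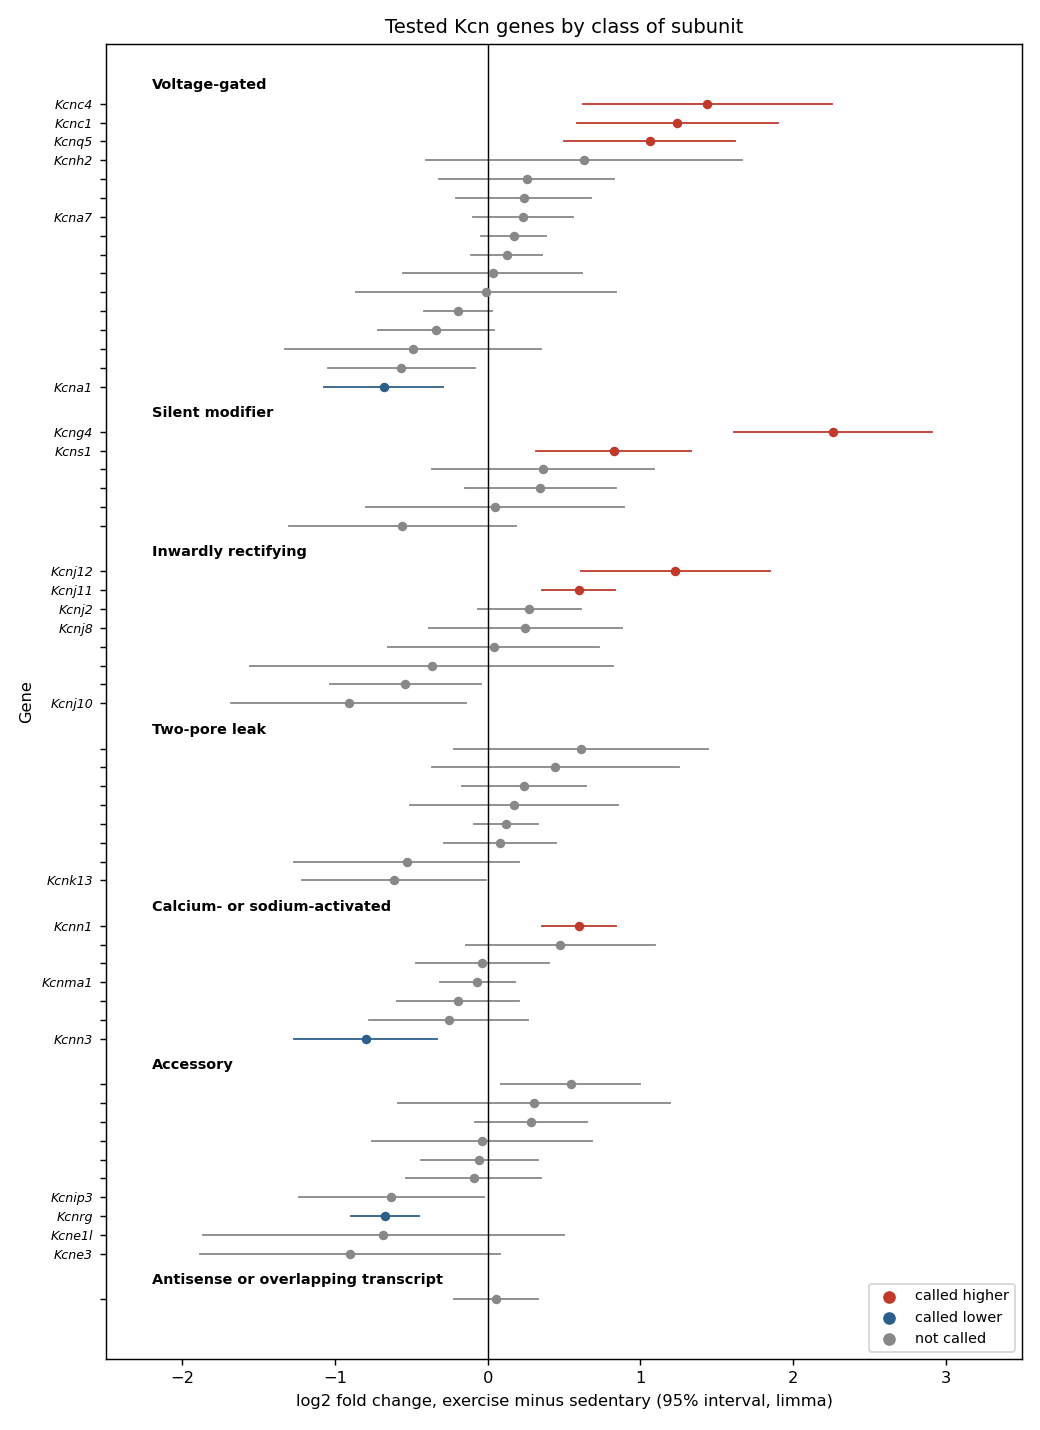
Difference Exercise minus Sedentary (log2, horizontal axis) of 56 of the tested Kcn genes, one row per gene with a label for genes whose differences the text gives, by class of subunit, with bars for the 95% interval from limma. Red genes (8) were called higher and blue genes (3) lower at an adjusted p under 0.05, grey genes were not called, and the differences ran from -0.91 (Kcnj10, with no exercised array well above background) to 2.26 (Kcng4).

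By class, as a description without a test, of 18 tested voltage-gated pore subunits 4 rose and 1 fell, and of 6 tested silent modifiers 2 rose. Of 8 tested inward rectifiers 2 rose, and of 7 tested calcium- or sodium-activated subunits 1 rose and 1 fell. Among 8 tested two-pore leak subunits 0 passed in limma and 1 had an unadjusted p under 0.05, and among 10 accessory subunits and regulators 1 fell. The median difference over the 58 genes was 0.07, where the median over all tested genes and transcripts was 0.03. Without scaling the Kcn median was -0.40 beside a median of all tested of -0.45, and in the deposited table of values it was -0.09 beside -0.13, so its sign depends on the scaling. The 12 genes kept their direction under every scaling tried, but Kcns1, Kcnn1 and Kcnj11 did not pass without scaling, Kcnc1 and Kcns1 in the deposited table, Kcna1 and Kcnn3 under quantile normalization, and Kcnn3 with median scaling.

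The 4 genes with the largest rises are shown with the 250 bases before their RefSeq start site (GRCm38.p6), because E-boxes, the letters CANNTG, are the element read by the myogenic factors. Each window is written 5′ to 3′ on the strand of its gene, with the E-box in capitals.
Kcng4 promoter, chr8:119635681-119635930, minus strand: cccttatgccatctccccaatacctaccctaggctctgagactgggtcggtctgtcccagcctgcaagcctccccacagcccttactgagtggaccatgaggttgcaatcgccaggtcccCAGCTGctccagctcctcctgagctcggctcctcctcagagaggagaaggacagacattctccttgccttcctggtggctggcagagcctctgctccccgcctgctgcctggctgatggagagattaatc
Kcnc4 promoter, chr3:107458899-107459148, minus strand: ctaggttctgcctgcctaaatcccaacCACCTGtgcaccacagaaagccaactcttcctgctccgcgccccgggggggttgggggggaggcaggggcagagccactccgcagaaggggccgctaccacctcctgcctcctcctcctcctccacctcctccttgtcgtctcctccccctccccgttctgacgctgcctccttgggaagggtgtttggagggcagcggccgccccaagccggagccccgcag
Kcnc1 promoter, chr7:46396218-46396467, plus strand: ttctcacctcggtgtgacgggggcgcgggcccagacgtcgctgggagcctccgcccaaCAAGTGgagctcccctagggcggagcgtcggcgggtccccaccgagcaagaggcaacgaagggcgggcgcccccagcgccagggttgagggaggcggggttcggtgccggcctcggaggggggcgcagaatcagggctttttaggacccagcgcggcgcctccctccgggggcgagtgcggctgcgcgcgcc
Kcnj12 promoter, chr11:61065554-61065803, plus strand: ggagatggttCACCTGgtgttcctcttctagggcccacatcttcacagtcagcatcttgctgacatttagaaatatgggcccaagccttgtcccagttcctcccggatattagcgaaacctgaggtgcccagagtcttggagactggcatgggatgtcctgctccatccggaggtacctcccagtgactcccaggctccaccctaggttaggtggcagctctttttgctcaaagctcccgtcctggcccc
Each of the 4 windows held 1 E-box, and the one in Kcng4 had the form CAGCTG. The letters CANNTG occurred in 66.2% of all 32851 windows of this length and in 67.0% of the 97 windows that matched 72 Kcn genes. CAGCTG occurred in 13.0% of all windows, 22.7% of the Kcn windows and 4 of the 11 windows of the genes that passed, which covered 9 of those 12 genes. The 4 windows with CAGCTG belonged to Kcng4, Kcns1 and Kcnn1, with both windows of Kcnn1 among them. They were 60.4 to 63.6% G or C, beside a median of 52.4% over all windows, and enrichment was not tested. Both motifs read the same on both strands, every CAGCTG is also a CANNTG, and a match says only that the letters are present.

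The largest difference of any tested Kcn gene was that of Kcng4, a silent modifier subunit of Kv channels. Its log2 signal was 0.50, 0.32 and 0.22 in Exercise mice 1, 2 and 3 and -1.30, -2.30 and -2.14 in Sedentary mice 1, 2 and 3. The lowest exercised mouse stood above the highest sedentary one, and the difference was 2.26 (SE 0.27, 95% interval 1.61 to 2.91, adjusted p = 0.0234, limma), a 4.80-fold higher signal. Kcns1, another silent modifier, had values of -2.49, -3.19 and -2.73 in Exercise and -3.48, -3.88 and -3.51 in Sedentary. It rose by 0.82 (SE 0.21, adjusted p = 0.0449), with groups that did not overlap.

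The Kv3 genes Kcnc1 and Kcnc4 encode subunits that open at strong depolarisation and close fast, which permits short action potentials and repetitive firing. Kcnc4 had log2 signals of 1.45, 1.03 and 1.20 in Exercise and 0.56, -0.48 and -0.71 in Sedentary. It rose by 1.44 (SE 0.34, 95% interval 0.62 to 2.25, adjusted p = 0.0376). Kcnc1 had 1.12, 0.67 and 1.32 in Exercise and 0.28, -0.63 and -0.26 in Sedentary. It rose by 1.24 (SE 0.27, 95% interval 0.58 to 1.90, adjusted p = 0.0330). In both genes every exercised mouse was above every sedentary one, and Sedentary mouse 1 was the sedentary mouse nearest to the exercised group.

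Kcnq5 belongs to the Kv7 family, whose slowly activating current restrains repeated firing. Kcnq5 had log2 signals of -2.46, -3.08 and -2.59 in Exercise and -3.44, -3.74 and -4.13 in Sedentary, and rose by 1.06 (SE 0.23, adjusted p = 0.0328). The groups did not overlap on the probe used, but the other kept probe of Kcnq5 differed by -0.35. The Kv1 subunit Kcna1, best known from the juxtaparanodes of myelinated axons, was lower in Exercise. Its log2 signal was -0.78, -0.91 and -0.76 in Exercise and -0.30, -0.32 and 0.21 in Sedentary, and it fell by 0.68 (SE 0.16, adjusted p = 0.0387). Kcna7, a Kv1 subunit of muscle, differed by 0.23 (adjusted p = 0.262) and the hERG subunit Kcnh2 by 0.63 (adjusted p = 0.323), neither of which passed.

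**Figure D2:**
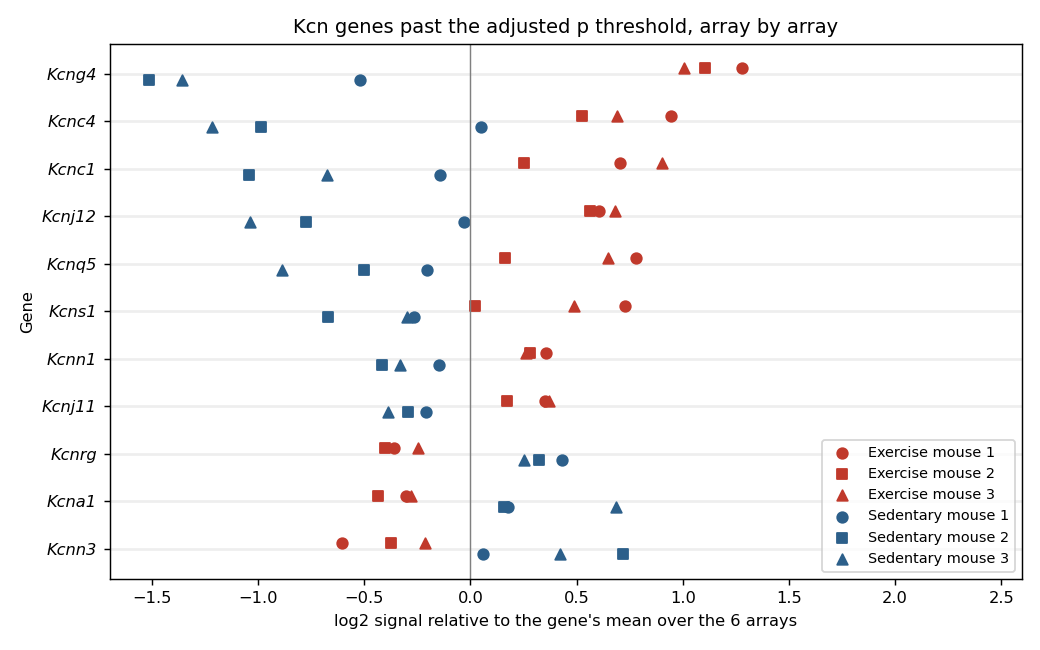
Log2 signal of 11 of the Kcn genes that passed, relative to the mean of the gene over the 6 arrays (horizontal axis), one marker per mouse. The exercised mice are to the right of the sedentary ones in the upper 8 genes and to the left in the lower 3, with no overlap in any of the 11, and Sedentary mouse 1 is the sedentary mouse nearest to the exercised group in all 8 upper genes.

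The inward rectifiers hold the resting potential of the fibre. Kcnj12, a Kir2 subunit, had log2 signals of 3.06, 3.02 and 3.13 in Exercise and 2.43, 1.68 and 1.42 in Sedentary. The exercised mice lay within a narrow band above all 3 sedentary mice, and the difference was 1.23 (SE 0.26, 95% interval 0.61 to 1.85, adjusted p = 0.0303). Its close relative Kcnj2, the gene of Andersen-Tawil syndrome, had 2.97, 3.06 and 3.01 in Exercise and 3.02, 2.52 and 2.69 in Sedentary. Sedentary mouse 1 lay among the exercised mice, and the difference of 0.27 did not pass (95% interval -0.06 to 0.61, adjusted p = 0.207).

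Kcnj11 encodes the pore of the ATP-sensitive potassium channel of muscle. Its log2 signal was 1.13, 0.94 and 1.15 in Exercise and 0.57, 0.48 and 0.38 in Sedentary, a rise of 0.60 (SE 0.0985, adjusted p = 0.0239) with separate groups. Kcnj8, the pore of the vascular form of that channel, differed by 0.25 (95% interval -0.38 to 0.88, adjusted p = 0.523). Of the sulfonylurea receptors that complete these channels, Abcc8 differed by -1.04 (adjusted p = 0.0833) and Abcc9 by -0.15 (adjusted p = 0.278), and neither passed. Kcnj10, the Kir4.1 subunit known from glia, was well above background on all 3 sedentary arrays and on no exercised one, so its Exercise level is only a limit and no fold is given.

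A pair of small-conductance calcium-activated subunits moved in opposite directions. Kcnn1 had log2 signals of 0.57, 0.50 and 0.48 in Exercise and 0.07, -0.20 and -0.11 in Sedentary, a rise of 0.60 (SE 0.099, adjusted p = 0.0239). Kcnn3, the subunit known to reappear in denervated fibres, had -3.54, -3.31 and -3.15 in Exercise and -2.88, -2.22 and -2.52 in Sedentary. It fell by 0.80 (SE 0.19, 95% interval -1.27 to -0.33, adjusted p = 0.0400), with separate groups in both genes. With normexp background correction the difference of Kcnn3 was -0.09 (adjusted p = 0.421). That correction adds an offset of 50 to each signal, which compresses the log2 differences of dim probes, so it cannot decide whether a dim gene fell. The large-conductance channel Kcnma1 differed by -0.07 (95% interval -0.31 to 0.18, adjusted p = 0.657).

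Among accessory subunits, the cytosolic regulator Kcnrg, which suppresses the assembly of Kv channels, was the single call. Its log2 signal was -3.90, -3.94 and -3.79 in Exercise and -3.11, -3.22 and -3.29 in Sedentary, and it fell by 0.67 (SE 0.092, adjusted p = 0.0234). With normexp background correction its difference was 0.06 (adjusted p = 0.576), under the same limit for dim probes as in Kcnn3. Kcne3, the partner of Kcnc4 in skeletal muscle, differed by -0.90 (95% interval -1.88 to 0.08, adjusted p = 0.161) and Kcne1l by -0.68 (adjusted p = 0.348). The calcium sensor Kcnip3 differed by -0.63 (adjusted p = 0.124), although its groups did not overlap. Among the 8 leak subunits tested, of which Kcnk13 had the lowest difference at -0.61 (adjusted p = 0.129), differences ran from -0.61 to 0.61. Of the 58 tested genes, groups did not overlap in 11 with a higher Exercise signal and 7 with a lower one. Both shares were below the 25.0% and 18.2% of all tested genes and transcripts that were separate in these directions. The 7 include Kcnj10, which was kept through its sedentary arrays alone.

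Several genes were read by more than 1 probe, which gives another look at the same mRNA. Among the genes that passed, the other kept probes of Kcnc1, Kcnj12, Kcnn1 and Kcnj11 pointed the same way as the probe used. The other kept probes of Kcnc1 differed by 1.72 and 2.35, that of Kcnj12 by 1.41, that of Kcnn1 by 1.12 and that of Kcnj11 by 0.52. The other kept probe of Kcng4 was well above background on all 3 exercised arrays and no sedentary one, so it was kept through the group in which it was high, and its Exercise signal was at least 4.26-fold higher. A bound of this kind sets the mean of the bright group against, on each dim array, the lowest signal called well above background or the probe's own signal where that was higher. A dimmer probe of Kcnc4 was well above background on 2 exercised arrays and no sedentary one. Its Exercise mean includes an array not well above background, so no fold is given. In Kcnq5 the other kept probe differed by -0.35 and was well above background on 1 exercised and 2 sedentary arrays, and with the mean of its probes its difference was 0.35 (adjusted p = 0.404). The other probe of Kcnrg, well above background on 2 sedentary arrays only, read -5.40, -5.60 and -5.47 in Exercise and -6.01, -1.29 and -2.32 in Sedentary, with overlapping groups. Over all 16 tested genes with more than 1 kept probe, 5 had probes of opposite sign, namely Kcnh4, Kcnn4, Kcnq1, Kcnq1ot1 and Kcnq5.

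**Figure D3:**
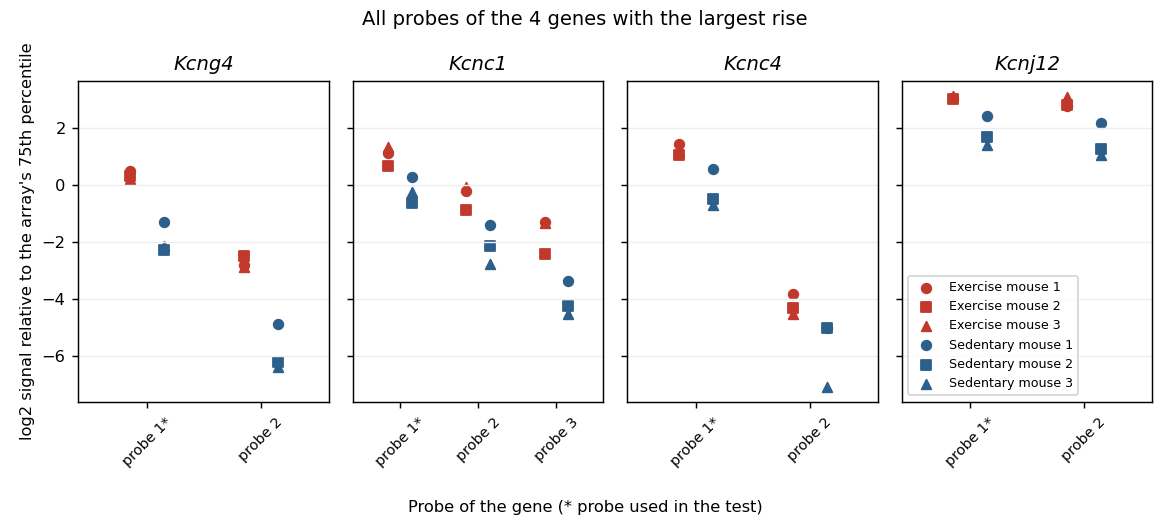
Log2 signal relative to the 75th percentile of the array (vertical axis) for each probe of Kcng4, Kcnc1, Kcnc4 and Kcnj12, the genes with the largest rises, with the probe used in the test marked by an asterisk, one marker per mouse. Every exercised mouse is above every sedentary one on all 3 probes of Kcnc1 and on both probes of the other genes, and the second probe of Kcng4 and of Kcnc4 is well above background on no sedentary array.

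Genes too dim for the test included Kcnf1, another silent modifier, named after its values were seen. Its log2 signal was -3.74, -4.68 and -4.16 in Exercise and -5.75, -7.01 and -6.89 in Sedentary, with 2 exercised arrays and no sedentary one well above background. Because an exercised array was not well above background, no fold is given, and no test was run. The other untested genes included Kcna3, Kcna4, Kcnab2, Kcnd2, Kcnk2, Kcnip2, Kcnj5 and Kcnmb1. Of these, Kcnip2 was well above background on 1 exercised array alone, with overlapping groups, and neither a fold nor a test is given.

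The slide holds the arrays in 2 strips, and the 3 Exercise arrays shared strip 1 with Sedentary mouse 1, while Sedentary mice 2 and 3 were alone in strip 2. Strip and group can therefore be separated only through Sedentary mouse 1. Because the groups of all 12 genes did not overlap, each had to keep its direction against that mouse alone, with every exercised array beyond it. The differences were 0.45 (Kcnn1) to 1.65 (Kcng4) for the higher genes named here and -0.77 to -0.46 for the 3 lower genes. In 11 of the 12 genes the difference was nearer to 0 than against all 3 sedentary mice, the exception being Kcnrg. Kcng4 went from 2.26 to 1.65, Kcnc4 from 1.44 to 0.67 and Kcnj12 from 1.23 to 0.64, while Kcnj11 went from 0.60 to 0.51. In limma with the strip as a block, 0 Kcn genes passed in either direction. At an unadjusted p under 0.05 there were 10 of 58 (17.2%), against 19.3% of all tested. The median difference of the Kcn genes within the shared strip was 0.00, where that of all tested was 0.03.

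**Figure D4:**
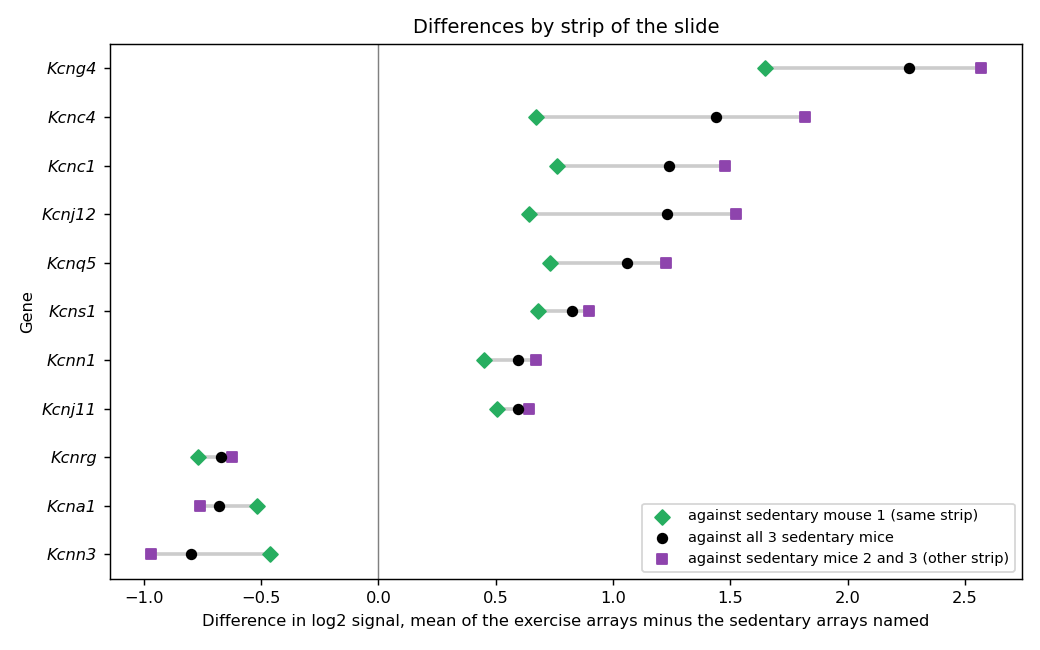
Difference of 11 of the Kcn genes that passed (log2), against all 3 sedentary mice (circles), against Sedentary mouse 1 alone, which shared its strip of the slide with the exercised mice (diamonds), and against Sedentary mice 2 and 3 (squares). All 11 keep their direction, as groups that do not overlap must, and 10 of them lie nearer to 0 against Sedentary mouse 1 alone.

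Markers of fibre type and of other cells moved between the same groups, and in bulk muscle fewer cells of a type and less RNA per cell cannot be told apart. Of 13 fast-twitch markers, Actn3 and Pvalb among them, 12 rose and the other did not pass. Their mean log2 signal was 8.74 to 8.95 in Exercise and 7.50 to 8.22 in Sedentary, their summed linear signal was 8328 to 9275 and 4080 to 6007, and the highest sedentary mean belonged to Sedentary mouse 1. Sedentary mouse 1 was also the highest sedentary mouse in all 9 Kcn genes that rose, and whether fibre type has a part in their rise was not tested. Of 9 slow-twitch markers, 1 rose and 2 fell. Of 15 denervation markers 1 rose and 10 fell, with mean log2 signals of 1.48 to 1.74 in Exercise and 2.27 to 3.14 in Sedentary, beside the fall of Kcnn3. Their summed linear signal was 1205 to 1293 in Exercise and 844 to 979 in Sedentary, most of it from Myh8, the marker that rose, whose kept probes differed by -0.71 and 0.75. Without Myh8, left out after its values were seen, the sum of the other 14 was 67.1 to 72.3 in Exercise and 109 to 274 in Sedentary. Myh3, counted among those that fell, also had kept probes of opposite sign (-2.35 and 0.92) and stayed in this sum.

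Beside the fall of Kcna1, 9 of 10 Schwann cell and nerve markers were tested, all 9 with lower values in Exercise, and 1 fell. Their mean log2 signal was 0.86 to 1.17 in Exercise and 1.26 to 1.54 in Sedentary, their summed linear signal was 45.4 to 55.1 and 52.5 to 69.7, and Cdh19 was not tested. Of 6 neuron markers Nefl and Syt1 were well above background on no array, and the other 4 were tested. In limma 0 of the 4 neuron, 6 endothelial, 8 macrophage, 4 red blood cell and 2 tested T cell markers passed, and 0, 0, 0, 1 and 0 of them had an unadjusted p under 0.05. Of 9 smooth muscle markers 1 rose (Acta2, with kept probes from -0.89 to 1.32) and 1 fell (Myh11), 6 had lower values in Exercise and 6 had an unadjusted p under 0.05 in limma. Of 6 adipocyte markers 1 rose (Lep), while the other 5 had lower values in Exercise and did not pass, with a median of -0.75 over the list. The part of these cells in the Kcn results was not tested.

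Genes whose products assemble with potassium channels or carry potassium formed a list of 45, of which 40 were tested, 9 rose and 4 fell, with a median difference of 0.22. Of all tested genes and transcripts, 11.5% rose and 6.15% fell. Against Sedentary mouse 1 alone, the median of the list was 0.08. Listed genes that rose included the caveolar membrane gene Cav3 (0.75, adjusted p = 0.0274), and Tmem38a, which encodes the TRIC-A potassium channel of the sarcoplasmic reticulum (0.72, adjusted p = 0.0265). Calm3 and Calm2, whose product calmodulin is the calcium sensor of Kcnn channels, rose by 0.60 and 0.37. The sodium pump regulator Fxyd1, the kinase subunit Csnk2b and the cation channel gene Hcn2 also rose, and Hcn3, Adam22 and the potassium-chloride cotransporter Slc12a7 fell. These calls depend on the scaling. Under quantile normalization none of the partner genes named here passed in limma, with adjusted p-values from 0.0507 (Slc12a7) to 0.744 (Fxyd1) and a difference of 0.35 for Tmem38a. Without scaling the named genes that rose did not pass either, and the differences of Calm2, Csnk2b and Fxyd1 turned negative, as did that of Fxyd1 under quantile normalization.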

How the data were processed

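Quadriceps RNA of 3 Exercise and 3 Sedentary AR97Q mice was labelled with 1 dye and hybridised to Agilent arrays. The authors deposited Feature Extraction files in which each spot has a processed intensity on a linear scale, with the background subtracted and spatial trends removed, and flags (other) for signal well above background. They also deposited a table of intensities whose columns equal the processed signal times 1 factor per array, of unstated origin, used here as an alternative only.

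Control spots (3671 of 62976) and outlier spots were left out, spots of a probe were averaged, log2 was taken and the 75th percentile of each array subtracted. The 22 probes with a missing value were dropped, and a probe was kept (32726 of 56605) if 3 or more arrays flagged it well above background. Probes were named by matching RefSeq accessions (34566 matched), and the brightest kept probe stood for a gene. Groups were compared with limma 3.58.1 (R 4.3.3) without covariates, with Benjamini-Hochberg adjustment over 25005 genes and transcripts, at an adjusted p of 0.05. The methods of the study name iDEP, with an FDR of 0.05 and an absolute log2 fold change of 1, and no scaling. The test was tried on simulated arrays.

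The Kcn genes and the lists were chosen with earlier results of these data known. Named genes are those that passed, the channels known for skeletal muscle, and the 6 largest differences among those that did not pass, while Kcnf1, Abcc8, Abcc9 and the partner genes that passed were added after their values were seen. A few genes of these lists are not reported here. Alternatives covered scaling, background correction (normexp with an offset of 50), the filter, the choice of probe, each array left out, and blocks for replicate number and strip. They also covered eBayes with trend and robust, thresholds and an unpaired t-test. Promoter windows come from RefSeq (GRCm38.p6). The number of arrays limits the precision.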

Additional observations from a re-analysis of the deposited data

How the results depend on the processing

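The direction of the 12 Kcn genes that passed was kept under every scaling and filter tried and with probes averaged per gene. With each array left out it was also kept, which groups without overlap fix in advance. It was not kept by Kcnrg with normexp background correction nor on the other kept probe of Kcnq5 (-0.35). The place of the 12 genes past the threshold varied, and the cause was not tested. Against 9 higher and 3 lower genes with a median of 0.07, no scaling gave 5 higher and 22 lower (median -0.40), normexp 17 higher and 1 lower (median 0.20), and no filter on dim probes 19 higher and 4 lower (median 0.24, 98 genes). Of all tested, 2.47% were called higher and 45.1% lower without scaling. The shares of all tested were 25.0% and 8.17% with normexp, and 21.7% and 4.28% with no filter. The 98 genes without the filter include 33 well above background on no array. Among these, Kcnd2 averaged -6.44 in Exercise and -6.79 in Sedentary, and Kcnj5 -6.62 and -6.98. The part of such genes in the counts and median was not tested. The median was 0.16 with median scaling, -0.0896 in the deposited table and 0.00 with the strip as a block or within the shared strip. At an adjusted p under 0.1, 5 genes were called lower, among them Kcnj10, with no exercised array well above background. The share of all tested at that threshold was not counted, so this count is not compared. With an absolute log2 difference of at least 1, 5 of the 58 genes were called higher and 0 lower, against 1.72% and 1.06% of all tested. With each array left out in turn, limma gave 0 to 10 higher, 0 to 4 lower and medians of 0.08 to 0.11. Of all tested, 0 to 13.9% were called higher and 0 to 8.25% lower in these fits. The methods' t-test with Benjamini-Hochberg adjustment gave 0 higher and 1 lower, against 1.75% and 0.824% of all tested. In that t-test 14 genes (24.1%) had an unadjusted p under 0.05, against 33.4% of all tested. With the strip as a block limma gave 0 higher and 0 lower, with 10 genes (17.2%) at an unadjusted p under 0.05, against 19.3% of all tested.

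With the replicate number as a block limma gave 0 higher and 0 lower. At an unadjusted p under 0.05 there were 19 of 58 genes (32.8%), against 34.3% of all tested. The deviations of same-numbered mice correlated at 0.02, 0.08 and 0.04, so nothing shows that the numbers pair the mice, and not every mouse matched its own number best.

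Directions that turned were Kcnma1 (0.0209 with median scaling), Kcna7 (-0.24), Kcnj2 (-0.20) and Kcnj8 (-0.23) without scaling, Kcnj10 (0.16) and Kcnrg (0.0635) with normexp, Kcnj2 (-0.000256) with the strip as a block and within the shared strip, and, without scaling, Calm2 (-0.10), Csnk2b (-0.0315) and Fxyd1 (-0.0825, and -0.0412 under quantile normalization). With each array left out in turn, Kcnj8 ran from -0.0504 to 0.427 and Kcnma1 from -0.116 to 0.00365 (both turning without Exercise mouse 2). Over all genes and transcripts the split of higher against lower calls went from 2867 and 1539 to 617 and 11280 without scaling and 1172 and 3201 in the deposited table, with medians of -0.45 and -0.13. Signal near background limits the 40 untested Kcn genes.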
